A study of Homo sapiens with 12 samples.

Results

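The 38 genes described here code for the enzymes that load amino acids onto transfer RNAs and for the proteins that hold several of these enzymes together. They were chosen by name: every line of the count table whose Ensembl gene identifier maps to a listed symbol was taken, with older names such as AARS counted as AARS1. All 38 were found among 58037 genes in the table, 17 of them under an older symbol. They comprise 19 genes of cytosolic synthetases, 16 genes of mitochondrial synthetases (symbols ending in 2) and 3 genes of scaffold proteins (AIMP1, AIMP2 and EEF1E1). GARS1 and KARS1 each code for both a cytosolic and a mitochondrial enzyme and were counted as cytosolic. RNA was sequenced from BT-549 and SUM149, established human cell lines of the triple-negative kind of breast cancer, which lacks oestrogen and progesterone receptors and HER2. In each line, 3 libraries came from cells with a stable hairpin that silences MUC1-C (MUC1shRNA) and 3 from cells with a control hairpin (CshRNA), which makes 12 libraries. The BT-549 controls carry the name CshRNA in their titles and vector elsewhere in the labels. All BT-549 cells were grown in RPMI1640 with serum, antibiotics and insulin, and all SUM149 cells in Ham's F-12 with serum, antibiotics, insulin, HEPES and hydrocortisone, so line and medium cannot be told apart. Each group gave 3 sets of cells. Whether a set had its own introduction of the hairpin, whether a hairpin line was 1 clone or a pool, and which sequence was targeted is not stated in the labels. The p-values therefore measure only the spread between these sets, which may be technical.

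Each aminoacyl-tRNA synthetase recognises 1 amino acid and the transfer RNAs that carry it, and joins them before the ribosome uses the charged transfer RNA. Human cells make most of these enzymes as separate cytosolic and mitochondrial proteins, both from nuclear genes. Several cytosolic synthetases sit in a multisynthetase complex held together by the scaffold proteins. When amino acids run short, uncharged transfer RNA activates the kinase GCN2 (EIF2AK4), which phosphorylates eIF2 alpha (EIF2S1) and raises translation of the transcription factor ATF4. ATF4 is known to raise transcription of many cytosolic synthetase genes, and it binds a composite C/EBP-ATF response element in their promoters. MUC1-C is the transmembrane subunit of the mucin MUC1.

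The targeted gene was low in every library labelled MUC1shRNA. MUC1 had 3.6, 6.01 and 4.28 CPM in BT-549 MUC1shRNA cells against 51.9, 53.6 and 54.3 CPM in BT-549 CshRNA cells, and 1.06, 0.334 and 0.481 CPM in SUM149 MUC1shRNA cells against 16.3, 16.6 and 12.1 CPM in SUM149 CshRNA cells. CPM are counts relative to the library's TMM-adjusted total, in the usual CPM unit. Its log2 fold changes were -3.53 (SE 0.14) and -4.59 (SE 0.27), with adjusted p = 4.2e-07 and 1.8e-08 in edgeR's quasi-likelihood test. Library totals lay between 16373893 and 21248768 counts in BT-549 MUC1shRNA, between 16332364 and 20745835 in BT-549 CshRNA, between 7931614 and 9623924 in SUM149 MUC1shRNA, and between 19392422 and 24140623 in SUM149 CshRNA. The silenced SUM149 libraries were thus the shallowest, and no SUM149 library of one group overlapped the other group in depth. On the second principal component of their line, BT-549 MUC1shRNA replicate 2, BT-549 CshRNA replicate 3 and SUM149 CshRNA replicate 3 stood apart from the rest of their groups. Of 7 epithelial markers, 4 reached a mean of 1 CPM in BT-549 MUC1shRNA and 3 in BT-549 CshRNA, with a summed level of 807.2 to 1045 CPM against 328.7 to 382.4 CPM. In BT-549 the largest gaps in mean level were those of KRT8 (282 against 44.5 CPM) and KRT18 (655 against 290 CPM). In SUM149 the epithelial sum was 1897 to 1984 CPM against 1985 to 2021 CPM. Its markers moved both ways. The mean of KRT5 was 136 against 273 CPM and that of KRT19 129 against 173 CPM. The means of EPCAM, CDH1, KRT8, KRT14 and KRT18 were higher in MUC1shRNA than in CshRNA. The mesenchymal marker VIM had 1430 to 1630 CPM in BT-549 MUC1shRNA and 1440 to 1580 CPM in BT-549 CshRNA, and in SUM149 it had 28.7 to 35.8 CPM in MUC1shRNA and 29.4 to 33 CPM in CshRNA. Leukocyte markers summed to at most 5.017 CPM in any library, and CD3E was at 0. Of the endothelial markers, PECAM1 had 9.71 ± 0.768 CPM in SUM149 MUC1shRNA and 28.4 ± 2.11 CPM in SUM149 CshRNA, with CDH5 and VWF below 1 CPM in every library. The part of these markers in the results below was not tested.

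Per base of exon, the cytosolic enzymes were the more abundant set in every group. RPKM are CPM per kilobase of exon, over all annotated exon bases of the gene. The median RPKM over the cytosolic genes was 59.4 in BT-549 MUC1shRNA and 54.2 in BT-549 CshRNA, and 42.1 in SUM149 MUC1shRNA and 51.1 in SUM149 CshRNA. Over the mitochondrial genes it was 8.21 and 9.36 in BT-549 MUC1shRNA and CshRNA, and 11.2 and 9.61 in SUM149 MUC1shRNA and CshRNA. GARS1, the glycyl-tRNA synthetase of both compartments, was the highest member in BT-549, at 270 ± 18 RPKM in MUC1shRNA cells and 235 ± 7.96 RPKM in CshRNA cells, and stood above the next gene by more than the sum of both SDs. In SUM149 the glutamyl-prolyl-tRNA synthetase EPRS1 led the cytosolic set, at 115 ± 7.74 RPKM in MUC1shRNA cells and 150 ± 3.54 RPKM in CshRNA cells. In the silenced SUM149 cells EPRS1 did not stand above the next gene, NARS1 (105 ± 6.38 RPKM), by more than the sum of both SDs. NARS1 did not stand above KARS1 (100 ± 2.99 RPKM) by that much either. CARS1, the cysteinyl enzyme, was the lowest cytosolic gene per base of exon in all 4 groups. It had 5.98 and 5.22 RPKM in BT-549 MUC1shRNA and CshRNA and 2.26 and 6.66 RPKM in SUM149 MUC1shRNA and CshRNA. In mean CPM, VARS1 was below CARS1 in BT-549 MUC1shRNA (57.5 against 60). HARS1 was below CARS1 in SUM149 CshRNA (57.8 against 66.8), and CARS1 stayed lowest in the other groups. Of the mitochondrial set, IARS2, the isoleucyl enzyme, was highest in all 4 groups. It reached 135 ± 2.81 RPKM in SUM149 MUC1shRNA, above every cytosolic member there, and 142 ± 3.39 RPKM in SUM149 CshRNA (SD, n = 3 each). SARS2, the mitochondrial seryl enzyme, was listed at 0 counts in all 12 libraries and was not tested. It shares 46.18% of its exon bases with the readthrough gene AC011455.2 on the same strand, which was also listed at 0, as was EEF1G, a gene for an elongation factor subunit that every cell uses. The listing is therefore not read as absence of SARS2 RNA. The other 37 members passed the filter on low counts in every main fit, with counts per library between 65 (VARS2) and 22783 (GARS1). Under the stricter alternative filter of 5 CPM in 3 libraries, VARS2 was not tested in BT-549.

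In SUM149, silencing went with lower RNA of most cytosolic synthetases and not of most mitochondrial ones. Of 19 cytosolic genes, 12 fell, 5 rose and 2 did not pass the test, with a median log2 fold change of -0.41. Of 15 tested mitochondrial genes, 3 fell, 5 rose and 7 did not pass, with a median of 0.13. The background in this line is high: 56.5% of 14178 tested genes passed the same threshold (Benjamini-Hochberg adjusted p below 0.05), 28.9% lower and 27.6% higher, with a median of -0.03. The cytosolic share that fell was 63.2%, against the mitochondrial share of 20%, while the shares that rose were 26.3% and 33.3%. These are bulk libraries, in which fewer cells of a kind and less RNA per cell cannot be told apart.

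The largest falls in SUM149 were those of the tryptophanyl, cysteinyl, tyrosyl, alanyl and seryl enzymes. WARS1 had 48.0, 48.2 and 51.8 CPM in the MUC1shRNA libraries and 177, 170 and 176 CPM in the CshRNA libraries. No silenced library came near a control library, and WARS1 was 3.5-fold lower (log2 fold change -1.81, SE 0.07, adjusted p = 2.6e-10, edgeR). CARS1 had 22.2, 24.5 and 21.4 CPM in MUC1shRNA cells against 66.3, 67.0 and 67.1 CPM in CshRNA cells, a log2 fold change of -1.55 (SE 0.08). YARS1 had 162, 179 and 162 CPM in MUC1shRNA cells against 422, 415 and 422 CPM in CshRNA cells (-1.31, SE 0.07). The 3 control libraries of both genes lay within a few percent of each other. AARS1 had 181, 200 and 187 CPM in MUC1shRNA cells and 434, 409 and 439 CPM in CshRNA cells (-1.16, SE 0.07). SARS1 had 123, 129 and 128 CPM in MUC1shRNA cells and 275, 293 and 280 CPM in CshRNA cells, which makes it 2.21-fold lower. MARS1 and GARS1, the methionyl and glycyl enzymes, followed. MARS1 had 123, 129 and 126 CPM in MUC1shRNA cells against 240, 235 and 257 CPM in CshRNA cells (-0.94, SE 0.06). GARS1 had 211, 192 and 196 CPM in MUC1shRNA cells against 387, 376 and 394 CPM in CshRNA cells (-0.94, SE 0.06). In all of these genes the groups were separate, which held for 62.5% of all tested genes and for 33.2% in this direction. Smaller falls were those of the threonyl enzyme TARS1 (-0.64), the isoleucyl enzyme IARS1 (-0.52), the valyl enzyme VARS1 (-0.41), the asparaginyl enzyme NARS1 (-0.39) and the bifunctional EPRS1 (-0.38), all with adjusted p of at most 0.00041 in edgeR. All 12 falls stayed past the test without any 1 library. MARS1 shares 7.39% of its exon bases with ARHGAP9 and 5.05% with the stress-response gene DDIT3 on the opposite strand, and no source used here states how the counting treated strand, so reads of those genes cannot be told apart from MARS1 reads there. For WARS1 the overlap with opposite-strand genes was 10.6%.

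**Figure D1:**
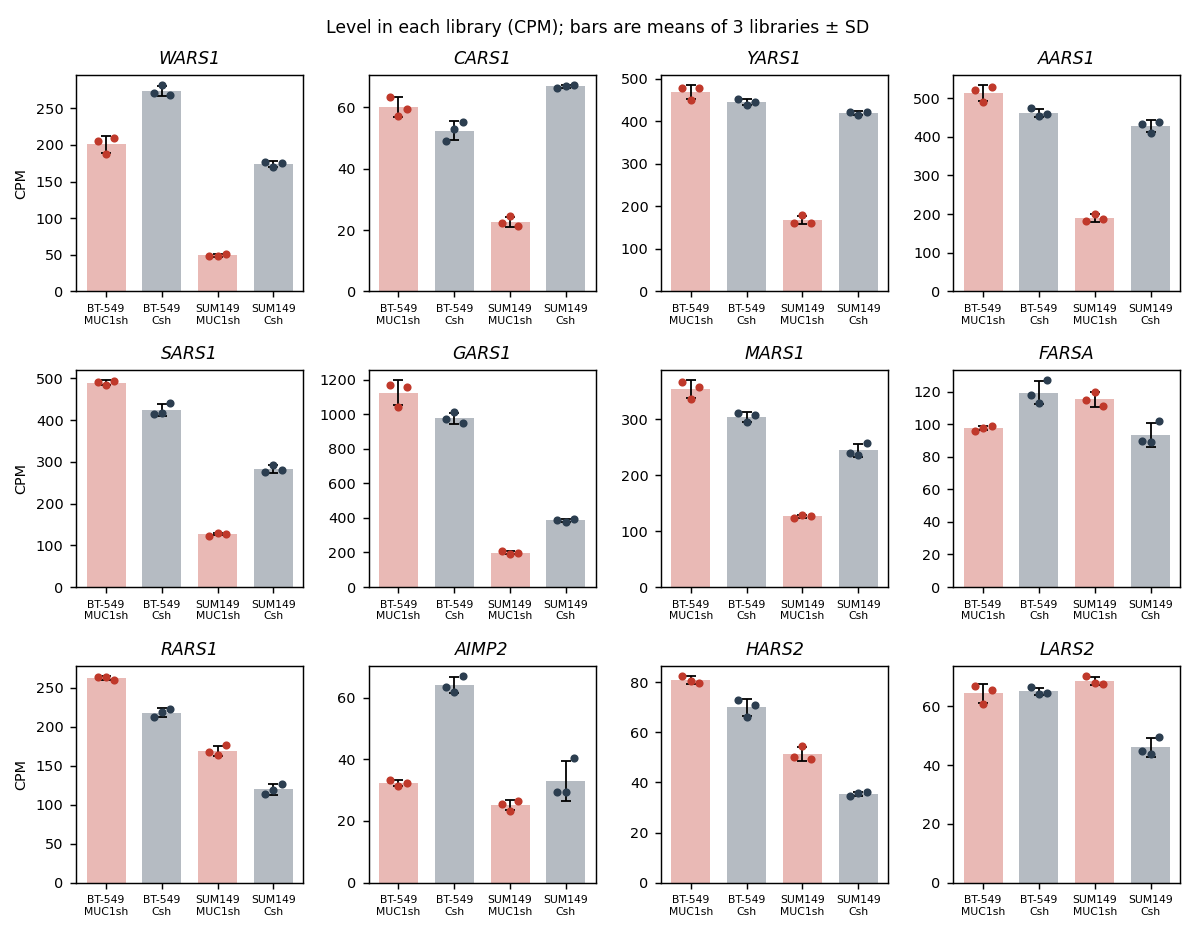
Level of 12 members in each library, in CPM on a linear axis that starts at 0, with points for the 3 libraries of a group and bars for their mean ± SD (red, MUC1shRNA; grey, CshRNA). WARS1, CARS1, YARS1, AARS1, SARS1, GARS1 and MARS1 are lowest in the SUM149 MUC1shRNA libraries, while AIMP2 shows its larger gap in BT-549.

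The cytosolic genes that rose in SUM149 were those of the histidyl enzyme HARS1 (log2 fold change 0.60), the arginyl enzyme RARS1 (0.51), the lysyl enzyme KARS1 (0.48) and both subunits of the phenylalanyl enzyme, FARSA (0.32) and FARSB (0.26). RARS1 had 168, 163 and 176 CPM in MUC1shRNA cells against 113, 119 and 127 CPM in CshRNA cells. FARSA had 115, 120 and 111 CPM in MUC1shRNA cells against 89.7, 89.1 and 102 CPM in CshRNA cells. For both genes the groups were separate, as for 29.3% of tested genes in the higher direction, by a narrower gap in FARSA, and the alpha and beta subunits of the phenylalanyl enzyme moved the same way. The glutaminyl enzyme QARS1 (0.00) and the leucyl enzyme LARS1 (0.02) did not pass the test. HARS1 and HARS2 lie head to head and share 437 exon bases on opposite strands, 5.57% of the exon bases of HARS1 and 11.7% of those of HARS2. Their counts may therefore not be fully separate.

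**Figure D2:**
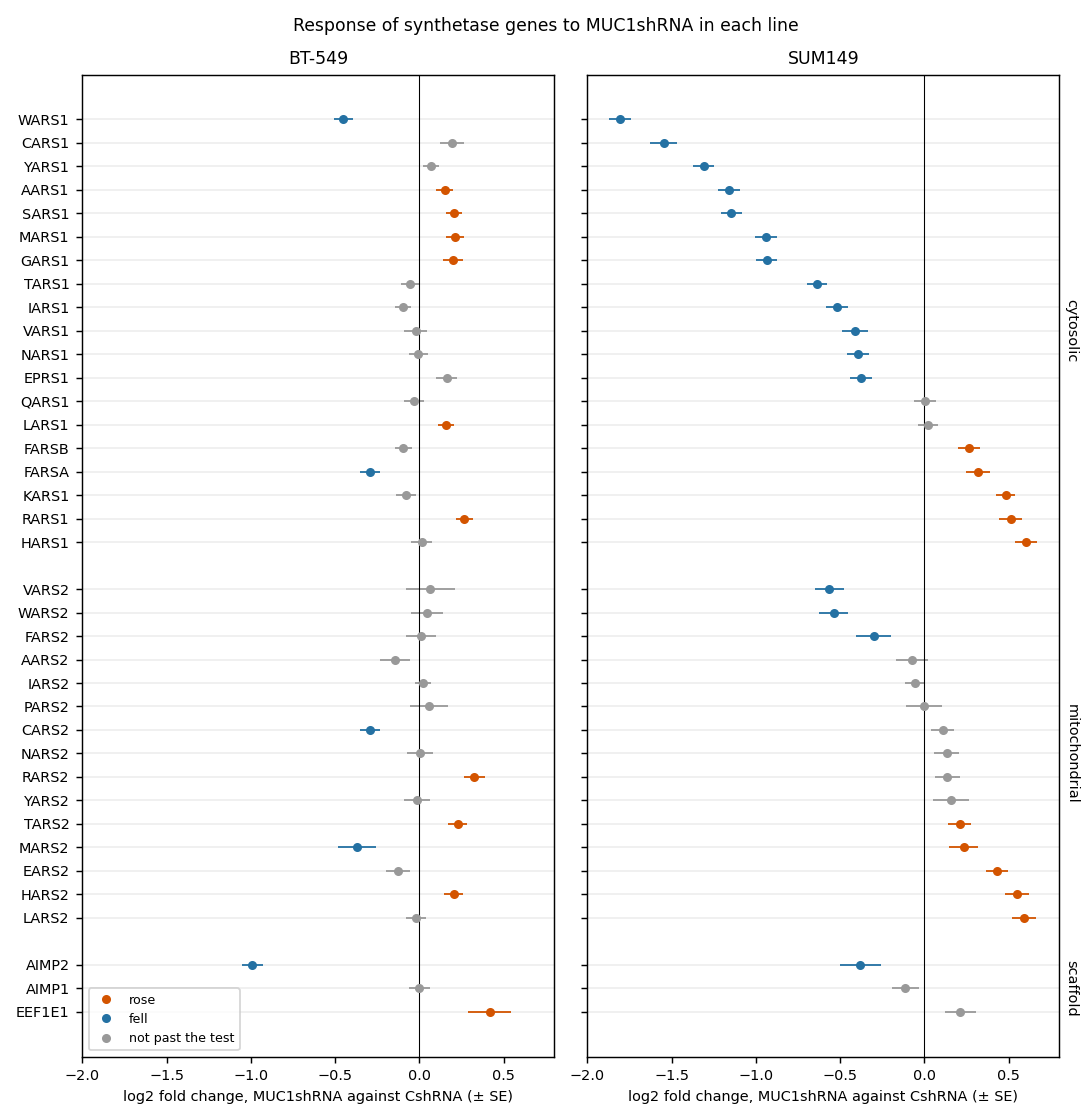
Log2 fold change of each tested member, MUC1shRNA against CshRNA, ± SE from edgeR, in BT-549 (left) and SUM149 (right), ordered within each set by the SUM149 value. Orange points rose, blue points fell and grey points did not pass the test; in SUM149 the cytosolic values reach -1.81 (WARS1) and 0.60 (HARS1), while in BT-549 the lowest point is AIMP2 at -0.99.

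The cytosolic genes that fell in SUM149 were mainly those known as targets of ATF4, a list drawn up with earlier results of these data known. Of 12 such genes (AARS1, CARS1, EPRS1, GARS1, IARS1, LARS1, MARS1, NARS1, SARS1, TARS1, WARS1 and YARS1), 11 fell and 0 rose in SUM149, with a median log2 fold change of -0.94. Of the other 7 (FARSA, FARSB, HARS1, KARS1, QARS1, RARS1 and VARS1), 1 fell and 5 rose, with a median of 0.32. As shares, 91.7% of the known targets fell and 71.4% of the other 7 rose, against 28.9% and 27.6% of all tested genes. ATF4 itself had 131, 145 and 135 CPM in SUM149 MUC1shRNA cells against 438, 446 and 426 CPM in SUM149 CshRNA cells. Its groups lay far apart, with a log2 fold change of -1.66 (SE 0.07, adjusted p = 5.5e-10, edgeR). In BT-549, ATF4 had 432, 414 and 431 CPM in MUC1shRNA cells and 407, 422 and 426 CPM in CshRNA cells. These groups overlapped, and the change of 0.02 (SE 0.05) did not pass the test. In the same line, 5 of the 12 known targets rose and 1 fell, with a median of 0.15, and 1 of the other 7 rose and 1 fell, with a median of -0.03. Over all tested genes of BT-549, 16.8% rose and 16.5% fell. The calls of all 5 targets that rose were lost without at least 1 library. The difference between the lines in the ATF4 response was 1.70 (SE 0.07, adjusted p = 4.7e-10, edgeR). A level of ATF4 RNA does not measure its protein, which is set largely in translation.

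The letters TGATGNAAN, with N for any base, were searched on both strands of RefSeq promoters (GRCh38.p14, 250 bases before to 50 after each gene's start) because they spell the C/EBP-ATF response element. Promoters were in the table for 16 of 19 cytosolic, 14 of 16 mitochondrial and 3 of 3 scaffold genes, and the genes without one were LARS1, VARS1, YARS1, AARS2 and VARS2. The letters occurred in 7 cytosolic genes (43.8%), in 1 mitochondrial gene (7.14%), in 0 scaffold genes and in 4.45% of all 27305 genes of the table. The narrower form TGATGCAAN, which is contained in the first, occurred in 6 cytosolic genes (37.5%), in 0 mitochondrial genes and in 1.08% of all genes. The windows that hold the letters are printed on the strand on which they read 5′ to 3′, with the match in capitals, to show how alike the cytosolic matches are.
AARS1, chr16:70289676-70289704, plus strand: ctaacttggcTGATGCAACtgcgagaaaa
CARS1, chr11:3057408-3057436, plus strand: tcctagaatcTGATGCAACcgccgccccg
IARS1, chr9:92293693-92293721, plus strand: cgcacggaggTGATGCAACgcgctgaaaa
MARS1, chr12:57488053-57488081, minus strand: aatccctcgcTGATGCAACcggaaccggc
NARS1, chr18:57621804-57621832, minus strand: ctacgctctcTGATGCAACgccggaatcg
TARS1, chr5:33440956-33440984, minus strand: ctggaccagcTGATGCAATcgaaaggcgc
GARS1, chr7:30594834-30594862, minus strand: gctcggagcaTGATGAAATcgccgcgtaa
YARS2, chr12:32756076-32756104, minus strand: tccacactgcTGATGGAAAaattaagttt
AARS1, CARS1, IARS1, MARS1 and NARS1 share all 9 letters TGATGCAAC, while YARS2, the mitochondrial match, differs in the variable bases. Counted along the gene, with -1 for the base before the start, the match begins at -188 in AARS1, at -197 in YARS2 and between -34 (GARS1) and 15 (NARS1) in the other 6. Over all tested genes, 28.9% fell and 27.6% rose in SUM149. The 7 cytosolic genes with the letters all fell in SUM149, with a median of -0.94 and a range of -1.55 to -0.39. Of the 9 cytosolic genes whose promoter lacks them, 3 fell (EPRS1, SARS1 and WARS1) and 5 rose, with a median of 0.26, so WARS1, the largest fall of all, had no such match in this window. In BT-549, 3 of the 7 genes with the letters rose and 0 fell, with a median of 0.15, against 16.8% and 16.5% of all genes. A match is a description of the letters and not evidence of binding. The AARS1 promoter up to the start is printed in the direction of the gene (chr16:70289507-70289756, minus strand), with the match in capitals in reverse complement.
AARS1 promoter: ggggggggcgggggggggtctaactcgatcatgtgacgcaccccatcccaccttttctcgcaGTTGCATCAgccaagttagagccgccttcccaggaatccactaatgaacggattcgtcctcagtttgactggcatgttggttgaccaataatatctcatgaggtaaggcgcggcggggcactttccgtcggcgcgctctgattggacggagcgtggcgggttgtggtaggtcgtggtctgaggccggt
The E-box CACGTG, which MYC binds, was in the promoters of 1 cytosolic gene (IARS1, which also holds the element above), 3 mitochondrial genes (MARS2, CARS2 and EARS2) and 1 scaffold gene (AIMP2), against 8.77% of all genes. These 5 did not move as a group: in SUM149 IARS1 and AIMP2 fell, MARS2 and EARS2 rose and CARS2 did not pass the test.

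The cytosolic set was also divided by membership of the multisynthetase complex. Of its 7 synthetases (EPRS1, IARS1, KARS1, LARS1, MARS1, QARS1 and RARS1), 3 fell and 2 rose in SUM149, with a median log2 fold change of 0.00. Of the 12 cytosolic genes outside the complex, 9 fell and 3 rose, with a median of -0.79. In BT-549, 3 of the complex members rose and 0 fell (median 0.16), and 3 of the others rose and 2 fell (median 0.00). Over all genes of that line, 16.8% rose and 16.5% fell. In SUM149, MARS1, IARS1 and EPRS1 of the complex fell and RARS1 and KARS1 rose, so 42.9% fell and 28.6% rose, against 28.9% and 27.6% of all genes. Of the cytosolic genes outside it, 75% fell and 25% rose.

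Among the mitochondrial synthetases in SUM149, LARS2, HARS2, EARS2, MARS2 and TARS2 rose and VARS2, WARS2 and FARS2 fell. LARS2, the leucyl enzyme, had 70.4, 68.1 and 67.8 CPM in MUC1shRNA cells against 44.9, 43.7 and 49.7 CPM in CshRNA cells (log2 fold change 0.59, SE 0.07, adjusted p = 1.3e-05, edgeR). HARS2, the histidyl enzyme, had 50.1, 54.7 and 49.5 CPM in MUC1shRNA cells against 34.7, 35.7 and 36.0 CPM in CshRNA cells (0.55, SE 0.07). The groups were separate in both, and HARS2 changed by about as much as its cytosolic neighbour HARS1. VARS2, the valyl enzyme, had 18.4, 21.0 and 20.1 CPM in MUC1shRNA cells against 30.2, 28.4 and 30.3 CPM in CshRNA cells (-0.56, SE 0.09, adjusted p = 0.00011, edgeR). It shares 22.0% of its exon bases with GTF2H4 on the same strand, so part of its count may belong to that gene. WARS2 (-0.54), FARS2 (-0.30), EARS2 (0.43), MARS2 (0.23) and TARS2 (0.21) made up the rest of the calls. FARS2, MARS2 and TARS2 lost their calls without single libraries, FARS2 without CshRNA replicates 1 or 3 or MUC1shRNA replicates 1 or 2, MARS2 without CshRNA replicates 1 or 2 or MUC1shRNA replicate 1, and TARS2 without CshRNA replicates 1 or 2 or MUC1shRNA replicate 3. The number that rose was 3, against 5, with upper-quartile scaling or without a filter on low counts, where MARS2 and TARS2 lost their calls. The number of mitochondrial genes called fell to 5 without CshRNA replicate 1, against 8 with all libraries. AARS2, CARS2, IARS2, NARS2, PARS2, RARS2 and YARS2 did not pass the test, with log2 fold changes between -0.07 (AARS2) and 0.15 (YARS2).

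In BT-549 the changes were small and ran both ways, except for the scaffold gene AIMP2. Of 19 cytosolic genes, 6 rose, 2 fell and 11 did not pass the test, with a median log2 fold change of 0.01. Of 15 mitochondrial genes, 3 rose, 2 fell and 10 did not pass, with a median of 0.01. Over all 13200 genes tested, 33.3% passed, 16.8% higher and 16.5% lower, with a median of -0.01. The share of cytosolic genes that rose was 31.6%, and no synthetase changed by as much as 1.5-fold.

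WARS1 was the most changed cytosolic gene in BT-549 as in SUM149, and it fell in both. It had 206, 187 and 209 CPM in BT-549 MUC1shRNA cells and 271, 282 and 268 CPM in BT-549 CshRNA cells, which were separate (-0.45, SE 0.06, adjusted p = 0.00039, edgeR). FARSA had 96.2, 97.8 and 98.7 CPM in MUC1shRNA cells against 118, 113 and 127 CPM in CshRNA cells (-0.30, SE 0.06, adjusted p = 0.0045). The alpha subunit thus fell here, while the beta subunit FARSB (-0.10) did not pass the test. RARS1 had 264, 264 and 260 CPM in MUC1shRNA cells against 212, 219 and 223 CPM in CshRNA cells (0.27, SE 0.05, adjusted p = 0.0028). MARS1 had 367, 336 and 357 CPM in MUC1shRNA cells against 311, 294 and 307 CPM in CshRNA cells (0.21, SE 0.05). SARS1 had 491, 483 and 494 CPM in MUC1shRNA cells against 414, 417 and 440 CPM in CshRNA cells (0.20, SE 0.05). In RARS1, MARS1 and SARS1 the silenced libraries were all above the controls, as for 23.8% of tested genes. The groups were separate in 47% of tested genes, 23.2% with the silenced libraries below. AARS1 had 522, 489 and 528 CPM in MUC1shRNA cells against 473, 453 and 459 CPM in CshRNA cells (0.15, SE 0.05, adjusted p = 0.048). GARS1 had 1170, 1040 and 1160 CPM in MUC1shRNA cells against 972, 1010 and 947 CPM in CshRNA cells (0.20, SE 0.06, adjusted p = 0.028). In AARS1 and GARS1 the lowest silenced library, replicate 2, lay close above the highest control. LARS1 rose by 0.16. The other cytosolic genes, CARS1, EPRS1, FARSB, HARS1, IARS1, KARS1, NARS1, QARS1, TARS1, VARS1 and YARS1, lay between -0.10 and 0.19 and did not pass.

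Several of the BT-549 calls rested on single libraries. Without MUC1shRNA replicate 1, 3 cytosolic genes passed the test, of which 1 rose, and without MUC1shRNA replicate 3, 4 passed, of which 2 rose. The mitochondrial count was 2 without either of these libraries and 3 without CshRNA replicate 2. WARS1, FARSA and RARS1, the mitochondrial genes RARS2 and CARS2, and AIMP2 stayed past it without any 1 library, and the other calls in this line (AARS1, GARS1, LARS1, MARS1, SARS1, HARS2, TARS2, MARS2 and EEF1E1) were lost without at least 1. The AARS1 call was lost without each of 5 of the 6 libraries. Without both BT-549 libraries that stood apart, 10 cytosolic and 5 mitochondrial genes passed, 8 of the 10 higher.

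Of the mitochondrial genes in BT-549, RARS2, TARS2 and HARS2 rose and MARS2 and CARS2 fell. RARS2, the arginyl enzyme, had 91.0, 95.8 and 90.2 CPM in MUC1shRNA cells against 70.1, 78.2 and 72.3 CPM in CshRNA cells (0.33, SE 0.06, adjusted p = 0.0032, edgeR). CARS2, the cysteinyl enzyme, had 83.3, 83.6 and 90.8 CPM in MUC1shRNA cells against 103, 110 and 102 CPM in CshRNA cells (-0.29, SE 0.06, adjusted p = 0.0046). Both kept their groups apart. MARS2, the methionyl enzyme, had 9.15, 10.1 and 8.35 CPM in MUC1shRNA cells against 10.8, 12.9 and 12 CPM in CshRNA cells (-0.37, SE 0.11, adjusted p = 0.032), and in SUM149 it had 36.8, 32.5 and 32.2 CPM in MUC1shRNA cells against 28.1, 28.7 and 30.2 CPM in CshRNA cells (0.23, SE 0.08, adjusted p = 0.030). It was thus lower in silenced BT-549 and higher in silenced SUM149, although either call was lost without some libraries. TARS2 (0.23) and HARS2 (0.20) rose in BT-549 as in SUM149. AARS2, EARS2, FARS2, IARS2, LARS2, NARS2, PARS2, VARS2, WARS2 and YARS2 lay between -0.14 and 0.07 and did not pass the test.

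The scaffold gene AIMP2, whose protein holds the multisynthetase complex together, had the largest change of any member in BT-549. It had 33.2, 31.4 and 32.4 CPM in BT-549 MUC1shRNA cells and 63.4, 61.9 and 67.0 CPM in BT-549 CshRNA cells, with a log2 fold change of -0.99 (SE 0.06, adjusted p = 6.5e-06, edgeR). In SUM149 it had 25.6, 23.2 and 26.3 CPM in MUC1shRNA cells and 29.3, 29.2 and 40.3 CPM in CshRNA cells (-0.38, SE 0.12, adjusted p = 0.017). The SUM149 groups were separate, but CshRNA replicate 3, which stood apart, was well above the other controls, and without it the change was -0.22 (adjusted p = 0.044). The SUM149 call was lost without MUC1shRNA replicate 1 or 2, with adjusted p = 0.0501 and 0.104. That call was also lost with all libraries thinned to the depth of the shallowest. AIMP2 shares 28.9% of its exon bases with EIF2AK1 on the opposite strand. How the counting treated strand is not stated, so reads of EIF2AK1 may be part of the AIMP2 count. The share of bases does not give the share of such reads. EEF1E1, also called AIMP3, had 20.1, 18.7 and 21.7 CPM in BT-549 MUC1shRNA cells against 16, 17.2 and 12.2 CPM in BT-549 CshRNA cells (0.42, SE 0.13, adjusted p = 0.029), and 32.6, 28.9 and 29.5 CPM in SUM149 MUC1shRNA cells against 24.4, 28.7 and 26.3 CPM in SUM149 CshRNA cells (0.21, SE 0.09, adjusted p = 0.064). Only the BT-549 change passed, and its call was lost without CshRNA replicate 3, the lowest control, without CshRNA replicate 1, or without MUC1shRNA replicate 1 or 3. EEF1E1 shares 18.7% of its exon bases with a readthrough gene, EEF1E1-BLOC1S5, on the same strand. AIMP1 had 84.3, 78.2 and 76.3 CPM in BT-549 MUC1shRNA cells against 80.1, 82.3 and 76.0 CPM in CshRNA cells, and 90.9, 80.9 and 81.8 CPM in SUM149 MUC1shRNA cells against 92.5, 100 and 83.6 CPM in CshRNA cells. Its groups overlapped in both lines, and it passed the test in neither.

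The responses of the lines were compared directly as the BT-549 log2 fold change minus the SUM149 one, over all 12 libraries. The difference passed the test in 25 of 37 members, against 39.6% of 15649 genes. In the cytosolic set 12 differences were positive and 5 negative (median 0.44), and in the mitochondrial set 2 were positive, 5 negative and 8 not past (median -0.05), while over all genes 19.5% were positive, 20.1% negative and the median was 0.04. All 12 positive cytosolic differences were in genes that fell in SUM149, and 11 of them were known ATF4 targets. The difference contains the SUM149 change itself, and the BT-549 changes were small. Both matches therefore largely restate the SUM149 result and add no separate support. CARS1 had the largest, 1.76 (SE 0.10, adjusted p = 1.1e-08), followed by YARS1 (1.40), WARS1 (1.37) and SARS1 (1.37). WARS1 thus fell in both lines and fell further in SUM149. The negative cytosolic differences were FARSA (-0.59), HARS1 (-0.57), KARS1 (-0.55), FARSB (-0.34) and RARS1 (-0.23), the 5 genes that rose in SUM149. That match, too, largely restates the SUM149 values. The RARS1 difference (adjusted p = 0.028) was lost without any of 5 libraries, BT-549 MUC1shRNA 3, BT-549 CshRNA 3, SUM149 CshRNA 1 or 2, or SUM149 MUC1shRNA 3. AIMP2 was the only scaffold gene past the test (-0.59, SE 0.16, adjusted p = 0.0067), with the larger fall in BT-549.

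Some members passed the test in both lines. AARS1, GARS1, MARS1 and SARS1 rose in BT-549 and fell in SUM149, a pattern of 4.79% of the 12125 genes tested in both lines. The BT-549 rises of these 4 genes lay between 0.15 and 0.21, and their SUM149 falls between -1.16 and -0.94. Each of the 4 BT-549 calls was lost without at least 1 library, while the SUM149 calls were kept. FARSA and MARS2 fell in BT-549 and rose in SUM149, as 5.14% of genes did. RARS1, HARS2 and TARS2 rose in both lines, against 5.97% of genes, and WARS1 and AIMP2 fell in both, against 5.11%. QARS1, AARS2, IARS2, NARS2, PARS2, YARS2 and AIMP1 passed in neither.

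The summed level of each set was compared between compartments. In SUM149 the 19 cytosolic genes summed to 4313 to 4483 CPM in MUC1shRNA libraries and 5958 to 6105 CPM in CshRNA libraries. The 15 mitochondrial genes with counts summed to 1203 to 1226 CPM in MUC1shRNA and 1167 to 1176 CPM in CshRNA. The cytosolic sum per mitochondrial sum was therefore 3.57 to 3.71 in silenced cells against 5.11 to 5.20 in controls, with no overlap. In BT-549 the cytosolic sum was 6818 to 7296 CPM in MUC1shRNA and 6735 to 6834 CPM in CshRNA, and the mitochondrial sum was 824.4 to 828.8 CPM against 798.5 to 822.7 CPM. Here the ratio was 8.27 to 8.80 in silenced cells and 8.3 to 8.43 in controls, which overlap. The 3 scaffold genes summed to 128.2 to 137.6 CPM in BT-549 MUC1shRNA and 155.1 to 161.4 CPM in BT-549 CshRNA. A sum of CPM weighs long and abundant transcripts most.

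**Figure D3:**
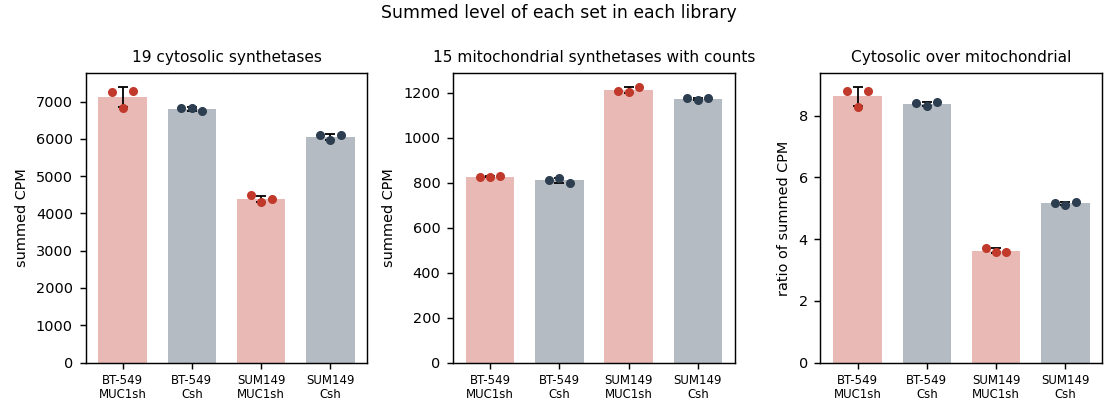
Summed CPM of the cytosolic genes (left), of the mitochondrial genes with counts (middle) and their ratio (right) in each library, with points for libraries and bars for means of 3 ± SD. The ratio is 3.57 to 3.71 in SUM149 MUC1shRNA and 5.11 to 5.20 in SUM149 CshRNA, while the BT-549 groups overlap.

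Each mitochondrial enzyme was also set against the cytosolic enzyme for the same amino acid within each library, which does not depend on the scaling of the library. Of 17 pairs, 16 had counts on both sides, and EPRS1 was paired with both EARS2 and PARS2. In SUM149 the log2 count ratio of cytosolic to mitochondrial enzyme was lower in every MUC1shRNA library than in every CshRNA library for 11 pairs and higher for 3, and the groups overlapped for 2. No such count over other gene pairs was made, and the groups of single genes were separate in 62.5% of all genes in this line, so the count of separate pairs is a description. The median difference of the mean ratios was -0.55. The cysteinyl pair moved most: CARS1 over CARS2 had log2 ratios of -2.30, -2.33 and -2.45 in MUC1shRNA libraries against -0.70, -0.64 and -0.76 in CshRNA libraries. The tyrosyl pair (-1.46), the tryptophanyl pair (-1.26) and the methionyl pair (-1.17) followed. The 3 pairs that went up were the phenylalanyl enzyme's subunits over FARS2 (0.62 for FARSA and 0.56 for FARSB) and the arginyl pair (0.38). In BT-549, where the groups of 47% of single genes were separate, 5 pairs were higher, 5 lower and 6 overlapping, with a median of -0.03. The alanyl, cysteinyl, leucyl, methionyl and EPRS1/EARS2 pairs were higher in silenced BT-549 and lower in silenced SUM149. WARS1 over WARS2 was lower in both lines, by 0.50 in BT-549 and by 1.26 in SUM149 on the log2 scale. These ratios were not tested, and pairs that share EPRS1 or FARS2 are not independent.

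**Figure D4:**
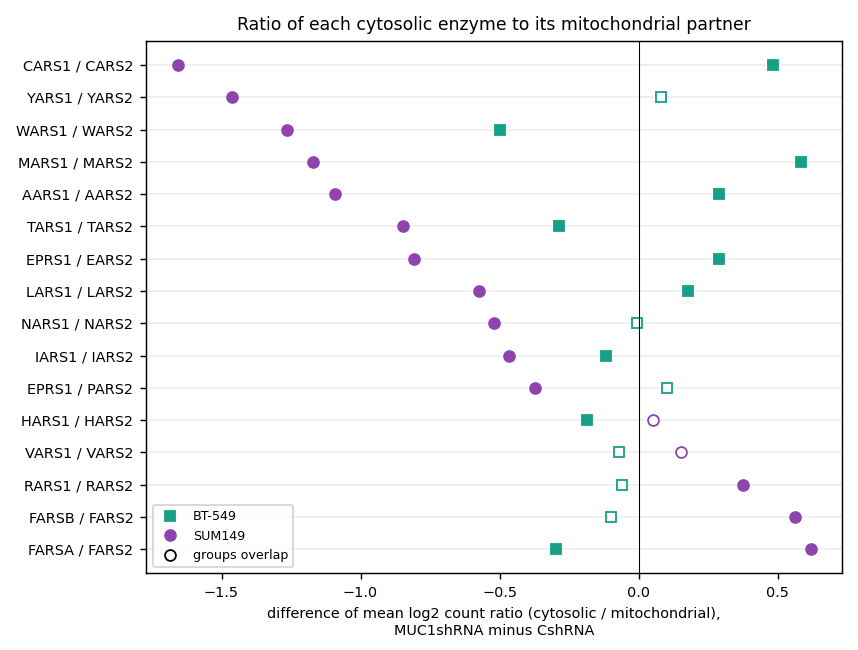
Difference between groups, MUC1shRNA minus CshRNA, in the mean log2 count ratio of each cytosolic enzyme to its mitochondrial partner, for BT-549 (squares) and SUM149 (circles). Open symbols mark pairs whose groups overlap; in SUM149 the values run from -1.66 for CARS1/CARS2 to 0.62 for FARSA/FARS2, and in BT-549 they stay between -0.50 and 0.58.

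The lines were also compared with each other within each hairpin group, although line and medium cannot be told apart. In CshRNA cells 9 cytosolic genes were higher in BT-549 than in SUM149, 7 were lower and 3 did not pass, in a comparison in which 83% of all genes passed, 39.5% higher and 43.5% lower. Of the mitochondrial genes 3 were higher, 8 lower and 4 did not pass. The members that differed by at least 2-fold were GARS1 (1.34) and HARS1 (1.39), which were higher in BT-549, and VARS1 (-1.71), IARS2 (-1.25), MARS2 (-1.29) and VARS2 (-2.62), which were lower. In MUC1shRNA cells, with 79.7% of all genes past the test, 38.9% higher and 40.8% lower, 12 cytosolic genes were higher in BT-549, 5 lower and 2 not past, and 4 mitochondrial genes were higher, 8 lower and 3 not past. GARS1 (2.49), WARS1 (2.02), SARS1 (1.95), MARS1 (1.49), YARS1 (1.48), AARS1 (1.44) and CARS1 (1.41) were then at least 2-fold higher in BT-549. Of these, only GARS1 differed that much in CshRNA cells. RARS2 was 1.13 higher on the log2 scale, and VARS2 (-1.98), MARS2 (-1.87), VARS1 (-1.30), IARS2 (-1.16) and EARS2 (-1.03) were lower. ATF4 did not pass between the lines in CshRNA cells (-0.06, adjusted p = 0.27, edgeR) and was 1.64 higher on the log2 scale in BT-549 in MUC1shRNA cells.

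Other genes of the pathway were counted from lists drawn up with earlier results known, and the genes named are those with the smallest adjusted p. In BT-549, 16.8% of all genes rose and 16.5% fell, and in SUM149 27.6% rose and 28.9% fell. Of 4 genes of the sensing of uncharged transfer RNA, 3 rose, EIF2AK4 (0.68) among them, and ATF4 fell in SUM149, and 0 of 4 passed in BT-549. The RNA of the kinase thus moved opposite to that of ATF4. Of 24 genes for maturation, modification and export of transfer RNA, 0 rose and 12 fell in BT-549 (50%, median -0.23), among them the pseudouridine synthases PUS7 (-0.43) and PUS1 (-0.56). In SUM149 7 rose and 3 fell (29.2% and 12.5%, median 0.15), and those that rose include POP1 (1.03), a subunit of RNase P, and the methyltransferase NSUN2 (0.64). The share that rose in SUM149 was near that of all genes. Of 7 tested cytosolic elongation factor genes, 2 rose and 2 fell in BT-549 (28.6% each), with EEF1A1 at 0.17 and EEF1D at -0.28, and 0 rose and 4 fell in SUM149 (57.1%), with EEF1A1 at -0.83 and EEF1A2 at -0.97. Of 15 genes for mitochondrial amidation, formylation and translation factors, 1 rose and 5 fell in BT-549 (6.67% and 33.3%), with GATB, an amidotransferase subunit, at 0.43 and the elongation factor TUFM at -0.21, and 5 rose and 5 fell in SUM149 (33.3% each, near the shares of all genes), with GFM1 at 0.49 and the ribosome recycling factor MRRF at -0.37. All these calls are from edgeR's quasi-likelihood test over all genes of the line.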

How the data were processed

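RNA was extracted with Trizol from cells cultured in triplicate and made into libraries with a kit that keeps strand (TruSeq Stranded mRNA), per the labels' protocols. Tools listed in the submitters' processing notes, with no role, are STAR 2.7.0, CASAVA 1.8.2 and DESeq2 1.24.0, on build GRCh38.p7. No source used here gives the counting tool, its strand setting or the annotation release. The deposited values are raw read counts per Ensembl gene, and the authors did not normalise them. PCR duplicates cannot be told from molecules, so precision from depth covers counting error only.

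Genes were named and exon lengths taken from GENCODE 29 (57433 of 58037 identifiers matched). The 45 entries on the Y pseudoautosomal regions were left out. Each line was tested on its 6 libraries with edgeR 4.0.16 (R 4.3.3): TMM scaling, filterByExpr, quasi-likelihood test and Benjamini-Hochberg adjustment at 0.05 over all genes tested. The difference between the lines' responses and the contrasts between lines came from all 12 libraries. The SE is the log2 fold change divided by the root of F. Only libraries of the same label were treated as replicates. Same-numbered libraries did not deviate together (correlations between -0.145 and 0.038 in BT-549 and between -0.084 and 0.097 in SUM149), so they were not paired. The procedure was tested on simulated data. Alternatives were other scalings and filters, DESeq2 1.42.0, limma-voom (limma 3.58.1), thinned libraries, a replicate block, set membership, overlapping genes left out, and each library left out.

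The members and lists were chosen with earlier results of these data known. Values in every library are printed for the 5 cytosolic and 3 mitochondrial genes with the largest change past the test in each line, for scaffold genes and for genes past the test in opposite directions. Protein sequences were not analysed here.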

Additional observations from a re-analysis of the deposited data

Results flagged for a closer look

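The response to the hairpin differed between the lines in 25 of 37 tested members, by edgeR's quasi-likelihood test of the difference itself over 12 libraries. Over all 15649 genes tested, 39.6% passed, 19.5% with a positive and 20.1% with a negative difference. In the mitochondrial set 13.3% were positive and 33.3% negative. Values are log2 fold changes in BT-549 minus those in SUM149. The difference was positive in 14 members. Among the cytosolic genes it was 1.76 for CARS1, 1.40 for YARS1, 1.37 for both SARS1 and WARS1, 1.33 for AARS1, 1.17 for MARS1 and 1.15 for GARS1. Smaller positive differences were those of TARS1 (0.59), EPRS1 (0.56), IARS1 (0.44), VARS1 (0.41) and NARS1 (0.40). The mitochondrial genes VARS2 (0.65) and WARS2 (0.60) fell in SUM149 and did not pass the test in BT-549. The difference was negative in 11 members. These were the cytosolic genes FARSA (-0.59), HARS1 (-0.57), KARS1 (-0.55), FARSB (-0.34) and RARS1 (-0.23), the mitochondrial genes LARS2 (-0.59), MARS2 (-0.58), EARS2 (-0.54), CARS2 (-0.38) and HARS2 (-0.33), and the scaffold gene AIMP2 (-0.59). The SUM149 MUC1shRNA libraries were also the shallowest, and with all libraries thinned to that depth the differences of RARS1 and VARS2 no longer passed the test. The differences of RARS1 and HARS2 did not pass without a filter on low counts, and that of RARS1 did not pass with a replicate block or without any of 5 single libraries.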

How the results depend on the processing

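In SUM149, 17 cytosolic genes passed the test under every alternative except 2: with GARS1 and KARS1 counted as mitochondrial, or with overlapping genes left out, 15 did. These 2 alternatives only made the set smaller, by GARS1 and KARS1 or by MARS1 and WARS1. The fit was the same and no call changed. The BT-549 counts depended on more choices. No paired design was found, and a replicate block left 5 cytosolic and 2 mitochondrial genes past the test in BT-549, against 8 and 5 without it, and 17 cytosolic genes in SUM149. Thinning all libraries to the shallowest left 2 mitochondrial genes in BT-549. Leaving out 1 library gave 2716 to 4470 genes past the test in BT-549, against 4398 (lowest without MUC1shRNA replicate 1), with 3 to 10 cytosolic and 2 to 5 mitochondrial genes among them, and 5 to 8 mitochondrial genes in SUM149.

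Between the lines, the cytosolic median was 0.11 in CshRNA cells and changed sign to -0.013 under upper-quartile scaling, which moved the median of all genes by -0.123. It was 0.177 without a filter on low counts and 0.019 with a filter of 5 CPM in 3 libraries. The mitochondrial median of -0.274 was -0.398 with upper-quartile scaling, -0.366 with the 5 CPM filter, -0.081 with GARS1 and KARS1 as mitochondrial, and -0.332 to -0.188 without 1 library. In MUC1shRNA cells the cytosolic median of 0.687 was 0.583, 0.773 and 0.615 with upper-quartile scaling (shift -0.104), no filter and the 5 CPM filter. The mitochondrial median of -0.435 was -0.539 with upper-quartile scaling, -0.349 without a filter and -0.171 with GARS1 and KARS1 as mitochondrial. In CshRNA cells the median shift of all genes was 0.067 without a filter and -0.09 with the 5 CPM filter. In MUC1shRNA cells it was 0.086 and -0.071. Counting GARS1 and KARS1 as mitochondrial left the fit the same and changed only the sets. Why scaling and filter moved all genes was not tested.

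Some changes near 0 that did not pass the test changed sign. In BT-549 these were FARS2 (-0.005) and NARS2 (-0.012) under upper-quartile scaling, NARS2 (-0.001) with limma-voom, and QARS1 (0.036) and VARS2 (-0.054) in thinned libraries. Without both libraries that stood apart, an alternative chosen after seeing the data, they were VARS1 (0.014), IARS2 (-0.004), LARS2 (0.022), NARS2 (-0.038) and VARS2 (-0.014). In SUM149 they were PARS2 (0.016 with RLE, 0.016 with DESeq2, 0.08 thinned), LARS1 (-0.039 with upper-quartile scaling, -0.018 without a filter) and QARS1 (-0.056 with upper-quartile scaling, -0.035 without a filter, -0.014 with the 5 CPM filter, -0.011 in the fit of 12 libraries). For the difference between the lines they were QARS1 (0.001 with the 5 CPM filter, 0.047 thinned), AARS2 (0.006 thinned) and TARS2 (-0.028 thinned). Without 1 library, BT-549 ranges that crossed 0 were AIMP1 -0.043 to 0.031, FARS2 -0.062 to 0.061, NARS1 -0.054 to 0.033, LARS2 -0.046 to 0.028, NARS2 -0.05 to 0.031, PARS2 -0.031 to 0.127, VARS2 -0.001 to 0.155, VARS1 -0.079 to 0.029, YARS2 -0.056 to 0.029, HARS1 -0.036 to 0.072, QARS1 -0.074 to 0.014 and WARS2 -0.034 to 0.117. In SUM149 they were QARS1 -0.026 to 0.049, PARS2 -0.062 to 0.121 and LARS1 -0.001 to 0.066, and for the difference PARS2 -0.027 to 0.158, QARS1 -0.077 to 0.022 and AARS2 -0.124 to 0.03.

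The lowest count of a tested member was 65, for VARS2 in a BT-549 MUC1shRNA library. In simulated data of the SUM149 comparison, over 14178 genes, 83% of planted 2-fold changes and 56% of 1.5-fold changes were recovered. For the difference between the lines, over 15649 genes, 67% and 34% were recovered, and for BT-549, over 13200 genes, 88% and 64%. The planted genes were drawn at random from all tested genes, at any level, so these shares do not measure recovery among the members. A member that did not pass may still have changed.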
